A study of Mus musculus with 3 samples.

Results

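The genes described here are 9 core genes of the Hedgehog pathway, chosen by symbol: the ligand genes Ihh and Shh, the receptor gene Ptch1, the signal transducer Smo, the decoy receptor Hhip, the inhibitor Sufu and the transcription factors Gli1, Gli2 and Gli3. All 9 had 1 probe set with a single gene symbol, among 19938 genes measured in this way. The arrays held RNA of bone marrow stromal cells sorted from tibia, femur and pelvis at baseline. There were 2 arrays of CXCL12-abundant reticular (CAR) cells, from 2 CXCL12-GFP knock-in mice, and 1 array of PDGFRa+ Sca+ CD45- lineage- cells, called PaS here, combined from 3 Prx1-Cre Rosa26Ai9/+ Cxcl12gfp/+ mice. All animals thus carried a GFP allele of Cxcl12. The Prx1-Cre driver, which is active in limb mesenchyme, and the Ai9 Cre reporter were present only in the PaS mice, so genotype and cell type cannot be told apart, and the ages were not given. The PaS group is a single pool with no replicate error.

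In the absence of a Hedgehog ligand, PTCH1 keeps SMO inactive, SUFU holds the GLI proteins in the cytoplasm, and GLI3 and, to a lesser degree, GLI2 are processed into repressors at the primary cilium. Ligand binding releases SMO, and GLI2 and GLI3 repressors give way to activators, which raise the transcription of Gli1, Ptch1 and Hhip in many tissues. In the skeleton, IHH made by prehypertrophic chondrocytes couples cartilage growth to bone formation, and in mouse bone Gli1 marks mesenchymal progenitors near the growth plate and around vessels.

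The 9 genes did not differ as a block. Ptch1, Smo, Sufu and Gli3 were higher in CAR cells by 3.63-fold to 6.59-fold. Ihh, Shh, Hhip, Gli1 and Gli2 did not pass the test. The 250 bases before the start of the 4 genes that passed are shown here, because these are the members that differed; they are read 5′ to 3′ from the RefSeq promoter table of build GRCm38.p6, with capitals for a GC box (GGGCGG, or CCGCCC on the opposite strand). The windows are chr13:63565736-63565985 on the minus strand for Ptch1, chr6:29735247-29735496 on the plus strand for Smo, chr19:46396646-46396895 on the plus strand for Sufu and chr13:15463473-15463722 on the plus strand for Gli3.
Ptch1: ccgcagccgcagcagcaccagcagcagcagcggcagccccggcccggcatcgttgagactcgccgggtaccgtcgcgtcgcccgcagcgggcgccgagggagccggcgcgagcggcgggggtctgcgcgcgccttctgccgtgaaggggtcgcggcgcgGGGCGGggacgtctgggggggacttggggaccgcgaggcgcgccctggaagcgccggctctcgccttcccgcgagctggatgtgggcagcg
Smo: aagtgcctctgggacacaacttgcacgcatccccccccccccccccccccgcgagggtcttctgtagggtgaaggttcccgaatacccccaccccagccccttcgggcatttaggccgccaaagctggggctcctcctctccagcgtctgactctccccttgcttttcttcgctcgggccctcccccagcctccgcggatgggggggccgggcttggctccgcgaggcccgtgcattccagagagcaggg
Sufu: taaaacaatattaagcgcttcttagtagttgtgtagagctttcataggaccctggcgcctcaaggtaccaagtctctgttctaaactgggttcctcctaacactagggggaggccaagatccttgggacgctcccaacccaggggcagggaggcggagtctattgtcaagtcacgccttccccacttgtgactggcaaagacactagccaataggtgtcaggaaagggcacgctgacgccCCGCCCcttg
Gli3: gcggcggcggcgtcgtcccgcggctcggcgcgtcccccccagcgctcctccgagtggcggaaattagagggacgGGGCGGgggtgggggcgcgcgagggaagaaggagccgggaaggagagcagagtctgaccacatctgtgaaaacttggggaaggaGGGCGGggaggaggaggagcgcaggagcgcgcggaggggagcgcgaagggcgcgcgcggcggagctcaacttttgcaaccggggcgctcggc

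The table held a promoter for 7 of the 9 members, and Gli1 and Shh were not matched. A GC box stood in 6 of the 7 windows (all but that of Smo), against 32.7% of all 32851 promoters of the same length. The windows of Ptch1 and Gli3 were rich in CpG, with 41 and 34 such dinucleotides, and 1.09% and 3.53% of all promoters held as many. Smo had 15 and Sufu 8, against a median of 6 over all promoters. The members that did not pass the test held 28 (Hhip), 24 (Ihh) and 22 (Gli2), more than Smo or Sufu. Of the 7 windows, only that of Sufu held a CCAAT box, against 33.8% of all promoters. The GLI consensus GACCACCCA was found in 0.225% of all promoters on either strand, and its shorter form CCACCCA, which overlaps it, in 8.11%. Neither was in any of the 7 windows. TATAAA, found in 12.4% of all promoters, was in none of the 7 either. These are matches of letters within short windows and do not show where a factor binds.

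Before the values, the arrays were read against their labels. Markers of CAR stroma were higher in CAR cells for 10 of 10 genes: the log2 intensity of Cxcl12 was 10.94 and 11.11 on the CAR arrays, against 7.76 on the PaS array, and that of Lepr, the leptin receptor gene, 9.92 and 10.19 against 4.35. Fibroblast and Sca-1+ progenitor markers ran the other way, with 6 of 9 measured genes lower in CAR cells and 1, Pdgfra, higher. Pdgfra encodes the receptor used to sort PaS cells and stood at 7.52 and 7.97 on the CAR arrays, against 4.33 on the PaS array. Ptprc, which encodes CD45 and was gated out of the PaS sort, stood at 5.11 and 5.01 on the CAR arrays, against 8.27 on the PaS array. All 10 leukocyte markers were lower in CAR cells, with a summed intensity of 424 and 502 on the CAR arrays, against 4090 on the PaS array. The PaS array therefore goes against its label for these genes. As it is the only array of its group, no result could be given without it. In such bulk samples, fewer cells of a type and less RNA per cell cannot be told apart.

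**Figure D1:**
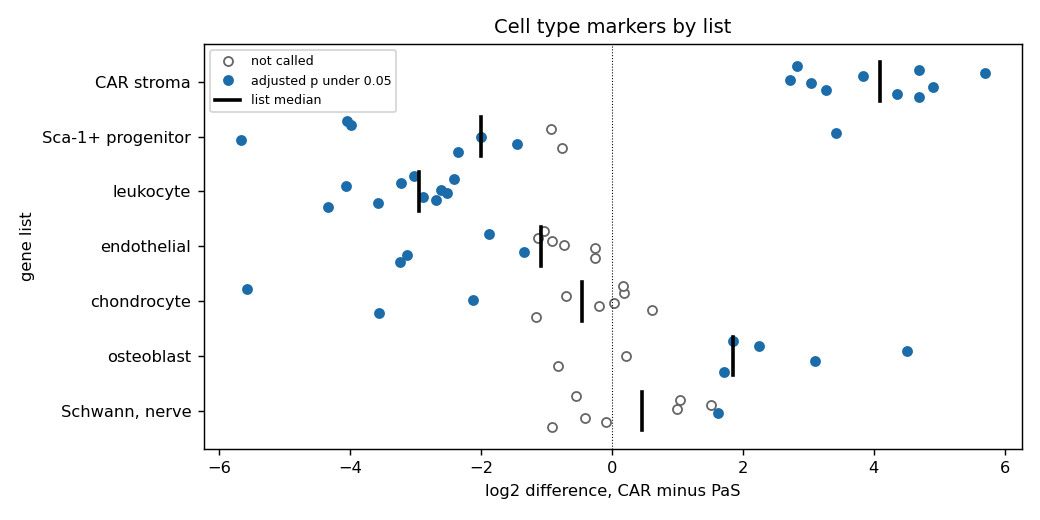
The log2 difference, CAR minus PaS, of each measured marker gene (points), by list, with the list median (black bar); filled points passed the test at an adjusted p under 0.05. All 10 CAR stroma genes lie above 0 and all 10 leukocyte genes below 0.

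Values below are log2 of the deposited intensity. The median over all genes was 3.74 and 3.75 in the CAR samples, against 3.77 in the PaS sample, and is given as a mark for dim signal; no detection calls were used, and probe sets differ in brightness, so levels are compared between arrays and not between genes. Differences are CAR minus PaS, tested with limma over all 19938 genes with Benjamini-Hochberg adjustment, and errors of differences are its moderated standard errors. Of all genes, 8.56% were called higher in CAR cells and 6.42% lower, 15.0% in all. Of the 9 Hedgehog genes, 4 were called higher and 0 lower, with a median log2 difference of 0.97 against −0.10 over all genes; without adjustment, 5 had p under 0.05. When only the brighter 9969 genes were fitted (mean at least the median), which keeps 8 of the 9 (not Hhip), 20.7% were called higher in CAR cells and 5.12% lower, and 4 and 0 of the members. By size alone, 4 members were at least 2-fold higher in both CAR arrays, as were 10.9% of all genes, and 0 were at least 2-fold lower, against 8.92%. Both CAR arrays lay above the PaS array for 6 members, as for 37.4% of all genes, and below it for 3, as for 46.8%.

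**Figure D2:**
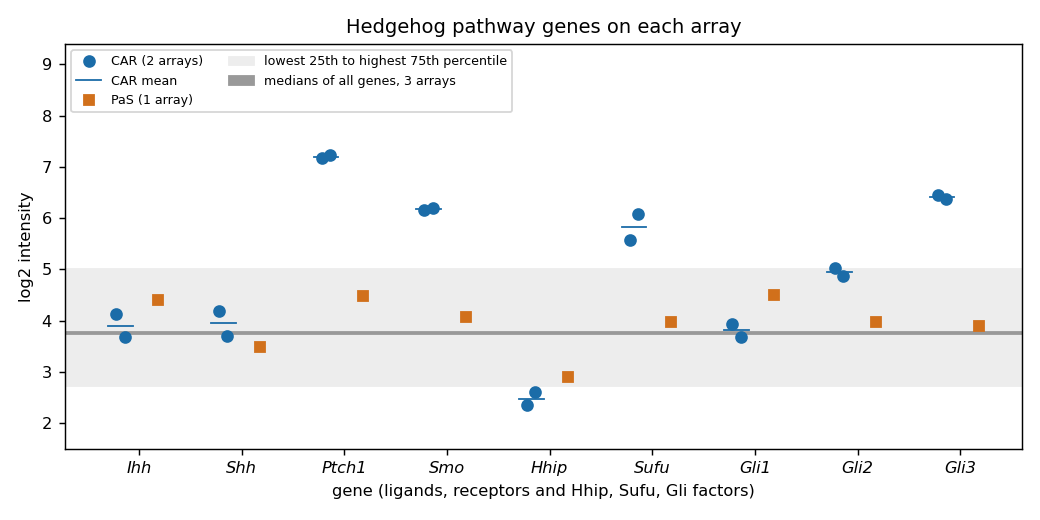
The log2 intensity of each of the 9 Hedgehog genes, with circles for the 2 CAR arrays, a line for their mean and a square for the PaS array; the grey band runs from the lowest 25th to the highest 75th percentile of the 3 arrays, and the dark line marks the medians of all genes. The CAR circles of Ptch1, Smo, Sufu and Gli3 lie above the band, those of Gli2 lie at its upper edge, those of Hhip lie under it, and the other points lie within it; the PaS point of Hhip, at 2.89, is inside the band but under the 25th percentile of its own array, 3.16.

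Ptch1, the receptor gene and in many tissues also a target of the pathway, had the largest difference of the 9. Its log2 intensity was 7.17 and 7.23 on the CAR arrays (intensities of 144 and 151), against 4.48 on the PaS array (22.4). The CAR arrays lay close together and well above the PaS array, which was 0.71 above its own median. The difference was 2.72 ± 0.28 (SE), or 6.59-fold, with a limma adjusted p of 0.0129, and 98.7% of all genes had a difference at or below it.

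Smo, the transmembrane protein that PTCH1 restrains, stood at 6.17 and 6.20 on the CAR arrays, against 4.08 on the PaS array. The CAR arrays were nearly equal (SD 0.02, n = 2), the narrowest pair among the 9 genes. Smo was 4.31-fold higher in CAR cells, a log2 difference of 2.11 ± 0.28 (SE; limma adjusted p = 0.0189).

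Sufu, the cytoplasmic inhibitor that binds GLI proteins, stood at 5.57 and 6.08 on the CAR arrays, against 3.97 on the PaS array. Both CAR arrays were above the PaS array, but they lay farther apart than for Ptch1 or Smo (SD 0.36, n = 2). The difference was 1.86 ± 0.34 (SE), or 3.63-fold, with a limma adjusted p of 0.0319. Taken from each CAR array alone it was 1.60 and 2.11.

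Hhip, a membrane protein that binds and sequesters Hedgehog ligands, was dim on every array. Its log2 intensity was 2.35 and 2.61 on the CAR arrays, against 2.89 on the PaS array, below the median of all genes on each. The groups did not overlap, but the log2 difference of −0.42 had a 95% interval of −1.16 to 0.33 (limma adjusted p = 0.368), and its sign turned after quantile normalization (0.055).

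Of the 3 Gli factors, which are paralogs with related zinc fingers, 1 passed the test, Gli3. Gli3, whose product acts mainly as a repressor when ligand is absent, stood at 6.46 and 6.38 on the CAR arrays, against 3.89 on the PaS array. The CAR arrays lay close together (SD 0.06, n = 2), and the PaS value was 0.12 above its array's median. The difference was 2.53 ± 0.28 (SE), or 5.76-fold (limma adjusted p = 0.0140).

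Gli2, the main activator at the start of the response, stood at 5.02 and 4.86 on the CAR arrays, against 3.98 on the PaS array. It was higher on both CAR arrays, but the log2 difference of 0.97 ± 0.28 (SE) did not pass (limma adjusted p = 0.0785), although its unadjusted 95% interval, 0.24 to 1.69, lay above 0.

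Gli1, an activator that depends on the signal for its own transcription, was lower on both CAR arrays than on the PaS array. Its log2 intensity was 3.93 and 3.69 on the CAR arrays, against 4.50 on the PaS array. The CAR values lay around the median of all genes and the PaS value 0.73 above it. The log2 difference of −0.69 ± 0.29 (SE) did not pass (95% interval −1.44 to 0.06; limma adjusted p = 0.165), and it passed after quantile normalization, at −0.94 (adjusted p = 0.0373).

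The same values can be read as ratios within each array, where a common scale of the array cancels. A difference in spread does not cancel, and the interquartile range was 1.96 and 2.28 on the CAR arrays, against 1.35 on the PaS array. The ratios restate the values above and add no support to them. The log2 ratio of Gli3 to Gli1 was 2.52 and 2.69 on the CAR arrays, against −0.61 on the PaS array, a difference of 3.22. That of Gli3 to Gli2 was 1.43 and 1.51 against −0.09. For Ptch1 over Gli1, 2 genes that rise together on pathway activation in many tissues, the ratio was 3.23 and 3.55 on the CAR arrays, against −0.02 on the PaS array, and for Ptch1 over Hhip it was 4.82 and 4.63 against 1.59. Hhip was dim, below the median of all genes on every array, which limits the reading of that last ratio. For Ptch1 over Smo the mean ratio was 1.02 ± 0.03 (SD, n = 2) on the CAR arrays, against 0.41 on the PaS array. Since probe sets differ in brightness, only the difference of a ratio between arrays can be read, and with 2 arrays against 1 it was not tested.

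Ihh and Shh stayed within 0.64 log2 units of the median of all genes on each array. Ihh, the ligand of the growth plate, stood at 4.14 and 3.68 on the CAR arrays, against 4.41 on the PaS array; the log2 difference was −0.50 (95% interval −1.34 to 0.33; limma adjusted p = 0.329). Shh, the ligand of limb bud and neural tube patterning, stood at 4.20 and 3.70 on the CAR arrays, against 3.49 on the PaS array, a log2 difference of 0.45 (95% interval −0.40 to 1.31; limma adjusted p = 0.391). For both, the CAR arrays differed from each other by about as much as from the PaS array (SD 0.32 and 0.35, n = 2). Dhh, the ligand made by Schwann and Sertoli cells, stood at 3.28 and 3.80 on the CAR arrays, against 4.33 on the PaS array, and did not pass either (limma adjusted p = 0.170). The intervals leave room for a change of more than 2-fold in Ihh and Shh.

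**Figure D3:**
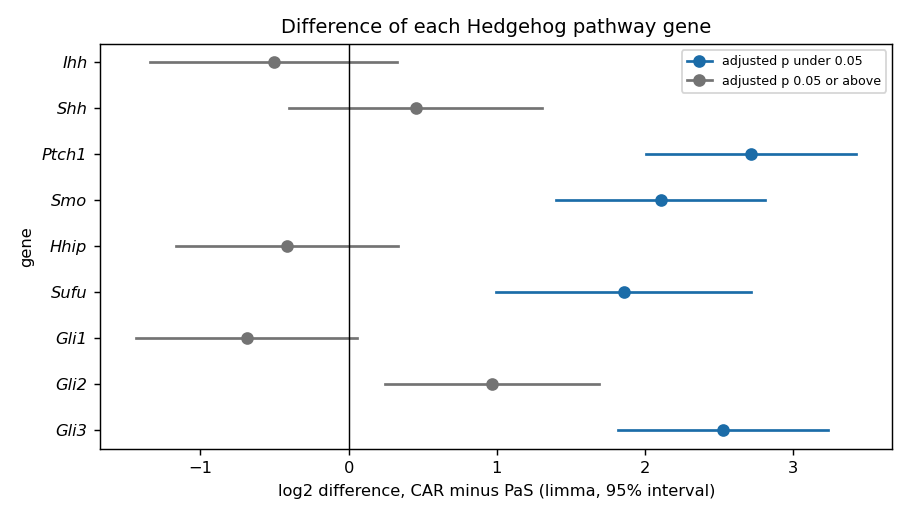
The log2 difference, CAR minus PaS, of each of the 9 genes with its 95% interval from limma (not adjusted for the number of genes); blue marks an adjusted p under 0.05. Ptch1, Smo, Sufu and Gli3 lie between 1.86 and 2.72, the interval of Gli2 lies above 0 but its adjusted p is 0.0785, and the intervals of Ihh, Shh, Hhip and Gli1 include 0.

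The rest of the pathway was read from 4 lists of 78 genes, of which 72 were measured. In all, 14 were called higher in CAR cells and 1 lower, against 8.56% and 6.42% of all genes, with a median log2 difference of 0.30. With the brighter genes alone, 15 of 52 were called higher and 1 lower, against 20.7% and 5.12%.

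For ligand processing, release and co-receptors, 2 of 14 measured genes were higher and 0 lower, against 8.56% and 6.42% of all genes. The list median was −0.29. Disp1, which releases lipid-modified ligand from producing cells, stood at 6.45 and 5.90 on the CAR arrays, against 4.37 on the PaS array (3.48-fold; limma adjusted p = 0.0352); averaged over its 2 probe sets the log2 difference was 1.29 (adjusted p = 0.0430), against 1.80 from the brighter one. The glypican Gpc6, a cell surface proteoglycan, was 2.70-fold higher (adjusted p = 0.0392). The co-receptor genes did not pass: Gas1 stood at 5.83 and 5.89 on the CAR arrays, against 5.31 on the PaS array. Boc had a CAR mean of 4.47 with a wide spread (SD 0.74, n = 2), against 3.93 on the PaS array, and Cdon lay at 3.13 and 2.63 against 3.35, below the median throughout.

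Among intracellular regulators, 6 of 22 measured genes were higher and 1 lower, against 8.56% and 6.42% of all genes, with a median of 0.77. Of the 22, 20 had a CAR mean at or above the median of all genes. In the separate fit of the brighter genes alone, 20.7% of them were called higher. The 6 calls come from the fit of all genes, and this list was not counted by itself in the other fit. Those that rose include kinases that phosphorylate GLI proteins and mark them for processing, and that also act in other pathways. Csnk1a1, casein kinase 1 alpha, stood at 6.75 and 6.88 on the CAR arrays, against 4.30 on the PaS array, and was 5.72-fold higher (limma adjusted p = 0.0142). Prkacb, a catalytic subunit of protein kinase A, was 3.94-fold higher (adjusted p = 0.0253). Mosmo, which lowers the level of SMO at the cilium and cell surface, was 4.12-fold higher, with a CAR mean of 5.90 ± 0.14 (SD, n = 2), against 3.86 on the PaS array (adjusted p = 0.0211). The other 3 that rose were Gsk3b, Itch and Fbxw11, at 2.43-fold to 2.64-fold; Gsk3b encodes a further GLI kinase, while Itch and Fbxw11 encode parts of the ubiquitin system. These 3 are named outside the rule for named genes. Kif7, the kinesin that organises GLI proteins at the tip of the cilium, did not pass (4.35 and 4.75 against 4.13).

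The 1 gene that fell was Arrb2, a beta-arrestin that can act on SMO and is abundant in leukocytes. It stood at 4.68 and 5.02 on the CAR arrays, against 8.13 on the PaS array, 9.68-fold lower in CAR cells (limma adjusted p = 0.0116). It moved with the leukocyte markers, whose median log2 difference was −2.95, and their part in this result was not tested.

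The pathway operates at the primary cilium in mammals. Of 17 measured cilium genes, 1 was called higher, against 8.56% of all genes, and 0 lower, against 6.42%, with a median of 0.32. Ift52, an intraflagellar transport subunit, was 2.33-fold higher (limma adjusted p = 0.0490). By size alone, 2 of the 17 were at least 2-fold higher in both CAR arrays, Ift52 and the kinesin gene Kif3a (2.43-fold, adjusted p = 0.0597; named after its value was seen), against 10.9% of all genes. Ift88, another subunit without which cells lack cilia, stood at 4.32 and 4.87 on the CAR arrays, against 4.53 on the PaS array (adjusted p = 0.906).

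The 19 measured downstream genes respond to Hedgehog signalling in some tissues and to other signals as well. Of these, 5 were higher and 0 lower, against 8.56% and 6.42% of all genes, with a median of 0.22. Of the 19, 13 had a CAR mean at or above the median of all genes. In the separate fit of the brighter genes alone, 20.7% of genes were called higher. This list was not counted by itself in that fit, so its 5 calls cannot be set directly against that share. Sfrp1, a secreted Wnt inhibitor, was 5.59-fold higher, Grem1, a BMP antagonist, 4.11-fold, Spry4, an inhibitor of receptor tyrosine kinase signalling, 4.03-fold, and Snai1, a transcription factor of mesenchymal transition, 3.60-fold (limma adjusted p between 0.0187 and 0.0320). The fifth was Foxc2, a forkhead factor of mesenchyme, 2.94-fold higher, also named outside that rule. The forkhead genes Foxf1, Foxf2 and Foxl1, targets in gut mesenchyme, did not pass, nor did Ccnd1 (3.92 and 4.41 against 4.26) or Ccnd2 (6.36 and 6.52 against 6.34).

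**Figure D4:**
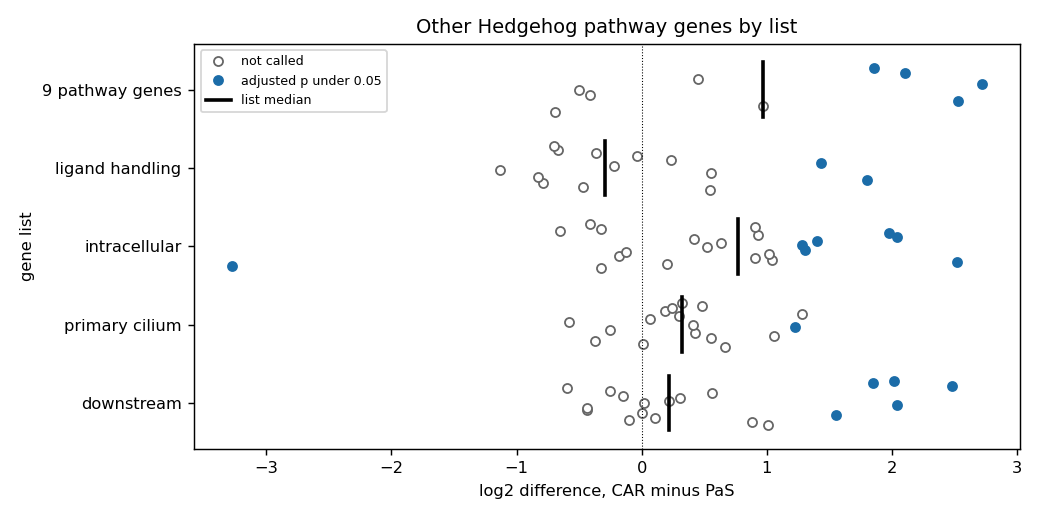
The log2 difference, CAR minus PaS, of each measured gene (points) of the 9 Hedgehog genes and the 4 lists of other pathway genes, with the list median (black bar); filled points passed the test at an adjusted p under 0.05. Filled points lie to the right in every list, apart from Arrb2 at −3.28.

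The genes closest to a called member over the 3 arrays were found by Euclidean distance of log2 intensity. Nearest to Ptch1 were Osmr, the oncostatin M receptor gene (distance 0.05), Enah, an actin regulator (0.10), and Ptpn14, a phosphatase (0.15). For Gli3 they were Slbp, Mark1 and Phldb2, for Smo Szrd1, Col12a1 and Prkci, and for Sufu Matn2, Tbc1d2b and Crat, all at distances of 0.05 to 0.15. Such likeness was common: 38 genes lay within 0.5 log2 units of Ptch1, 76 of Gli3, 155 of Smo and 170 of Sufu.

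Other cell types were read beside the members. Of 7 measured osteoblast markers 5 were higher in CAR cells, with a summed intensity of 2474 and 3573 on the CAR arrays, against 276 on the PaS array; without Ibsp, its brightest gene, the sum was 403 and 476 against 165. Of 10 endothelial markers 4 were lower, with a sum of 112 and 105 on the CAR arrays, against 320 on the PaS array; Cdh5 stood at 2.91 and 3.18 against 6.28. Of 10 chondrocyte markers 3 were lower, with a sum of 171 and 204 on the CAR arrays, against 1789 on the PaS array. Prg4, the joint lubricant gene, made up 1411 of the PaS sum, and without it the sums were 153 and 155 on the CAR arrays, against 378 on the PaS array. Col2a1, the cartilage collagen gene, stood at 4.85 and 4.43 on the CAR arrays, against 4.83 on the PaS array. Of 8 Schwann and nerve markers 1 was higher, with a sum of 536 and 914 on the CAR arrays, against 291 on the PaS array, or 136 and 178 against 101 without Pmp22, its brightest gene. No marker was listed at 0. The part of these cell types, and of leukocytes, in the differences of Ptch1, Smo, Sufu and Gli3 was not tested.

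The 4 calls rest on the spread of 2 CAR arrays, moderated over all genes, and this spread is assumed for the PaS array too. With 1 residual and 4.20 prior degrees of freedom, the standard errors come mostly from the spread over all genes. They are thus not each gene's own spread between the CAR arrays. With 16 added to each intensity before log2, which damps dim signal, 0 of the 19938 genes were called in limma (5785 had an unadjusted p under 0.05), and the adjusted p was 0.0539 for Ptch1 and Gli3, 0.0545 for Smo and 0.110 for Sufu, with log2 differences of 2.09, 1.72, 1.43 and 1.205. Raising all low values to a common floor left the differences of these 4 genes as they were, but also gave 0 calls over all genes (6428 with an unadjusted p under 0.05).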

How the data were processed

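Labelled cDNA of 3 sorted cell samples was hybridised to Affymetrix arrays. RNA was amplified from picogram to nanogram inputs, per the labels' protocols. The values deposited by the authors are intensities on a linear scale, 1 for each of 35556 probe sets, made with Affymetrix Expression Console and RMA, per the submitters' processing notes; tool versions and the genome build: not given in the sources used here.

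Log2 of the intensity was taken. Of the probe sets, 21789 carried 1 gene symbol, 1621 several and 12146 none in the platform annotation; those with several or none were left out. Symbols were updated through gene identifiers, and the probe set with the highest mean stood for a gene, which left 19938 genes. The spread of values differed: the interquartile range of log2 intensity was 1.96 and 2.28 for CAR, against 1.35 for PaS. The 5th percentile was 1.87 and 1.69 for CAR, against 2.40 for PaS, which by itself can place a dim gene lower in CAR cells. The 75th percentile was 4.82 and 5.01 for CAR, against 4.52 for PaS. The 95th was 6.69 and 6.93 for CAR, against 6.16 for PaS, which by itself can place a bright gene higher in CAR cells.

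The fit of CAR minus PaS used limma 3.58.1 (R 4.3.3; lmFit, eBayes, two-sided, Benjamini-Hochberg over all genes, threshold 0.05), with 1 residual and 4.20 prior degrees of freedom. The number of arrays limits the precision. Alternatives covered scaling, low values, probe sets, the variance model and each CAR array left out. The members and lists were chosen with earlier results of these data known. Genes named are all members, up to 4 called genes with the largest difference per pathway list, 6 pathway genes (Dhh, Boc, Cdon, Gas1, Kif7, Ift88), 6 markers, and the 3 genes nearest each called member; Foxf1, Foxf2, Foxl1, Ccnd1, Ccnd2, Gsk3b, Itch, Fbxw11, Kif3a, Ibsp, Prg4, Pmp22 and Foxc2 were named after their values were seen.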

Additional observations from a re-analysis of the deposited data

How the results depend on the processing

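Ptch1, Smo, Sufu and Gli3 were called higher in CAR cells under 6 of 8 alternatives. These were centring, quantile normalization, the brighter genes alone, averaged probe sets, and a trended or robust prior. As each member had 1 probe set, averaging could not change their values and is no separate check of them. After quantile normalization the log2 differences of the 4 genes were 2.25, 1.80, 1.61 and 2.29, against 2.72, 2.11, 1.86 and 2.53. With the pseudocount of 16 or the common floor, 0 members and 0 other pathway genes were called in either direction, as 0 of all genes were; at an unadjusted p under 0.05 there were 6 and 4 members, 26 and 22 other pathway genes, and 5785 and 6428 of all genes. The prior degrees of freedom were then 1.76 and 0.551, against 4.20. After quantile normalization 1 member, Gli1, was called lower, the log2 difference of Hhip reversed to 0.055, 2636 genes were called higher and 2831 lower over all genes, and 7 other pathway genes were lower instead of 1. Other pathway genes called lower numbered 2 with centring, an intensity trend or a robust prior. With the brighter genes alone, 510 were called lower. With 1 CAR array left out there is no test; 4 to 5 members, 17 to 23 other pathway genes and 2529 to 3233 of all genes were then at least 2-fold higher, and 0, 2 to 3, and 2319 to 2809 at least 2-fold lower, against 4, 16 and 2178 higher and 0, 2 and 1778 lower in both arrays. The causes were not tested. No paired analysis was possible because the CAR and PaS arrays came from different mice.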
